A study of Homo sapiens with 24 samples.

Results

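The 9 genes described here are *ANKRD1*, *CYR61*, *CTGF*, *AMOTL2*, *AJUBA*, *LATS2*, *AXL*, *TEAD1* and *YAP1*, which are known as targets, feedback regulators or core factors of the YAP/TEAD transcription programme. They were taken by symbol from the 18915 genes of the count matrix and followed over all 6 treatment groups. *ANKRD1* was chosen because nelfinavir changed it very differently with and without bortezomib, so its levels in DMSO, nelfinavir, bortezomib and their combination are given as a description with no test. *ANKRD1* was tested in bortezomib-ISRIB against ISRIB, and 7 of the other genes were tested in every comparison apart from the nelfinavir by bortezomib difference. *AXL*, with few counts, is given as a description throughout.

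HepG2, an established human liver cancer cell line, received for 10 h either DMSO as the vehicle, ISRIB at 50 nM, nelfinavir at 20 µM, bortezomib at 50 nM, or bortezomib together with nelfinavir or with ISRIB at those doses. Bortezomib (Btz) blocks the proteasome, nelfinavir (Nelf) is an HIV protease inhibitor that activates the eIF2α-ATF4 stress pathway, and ISRIB blunts the output of that pathway. Each group had 4 biological replicates and 1 RNA-Seq library per replicate, 24 libraries in all, made with a kit that reads the 3′ ends of polyadenylated transcripts. The comparisons ask which genes nelfinavir or ISRIB change by themselves and on top of bortezomib, and all groups share 1 cell line, 1 dose per drug and 1 time point.

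YAP and its paralog TAZ are transcriptional coactivators that the kinases of the Hippo pathway hold in the cytoplasm. When the pathway is off, YAP and TAZ enter the nucleus and bind TEAD proteins, which recognise the sequence GGAATG near their target genes. The secreted matrix proteins CYR61 (CCN1) and CTGF (CCN2) and the ankyrin repeat protein ANKRD1 are the targets used most often to read the pathway. AMOTL2, AJUBA and LATS2 are both targets and regulators of it: AMOTL2 binds YAP outside the nucleus, LATS2 is the kinase that phosphorylates YAP, and AJUBA restrains LATS kinases. In liver, the pathway is known for its control of organ size and of tumour growth.

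RefSeq promoters on GRCh38.p14 were given for 7 of the 9 genes, without *CYR61* and *TEAD1*. The TEAD letters GGAATG, searched on both strands from 250 bases before to 50 bases after the start site, were found in 4 of the 7, *ANKRD1*, *CTGF*, *LATS2* and *YAP1*, and in 14% of all 35116 promoters. The 250 bases before the start sites of *ANKRD1* and *CTGF*, which were called in opposite directions in bortezomib-ISRIB against ISRIB, and of *AMOTL2*, which moved like *ANKRD1* when nelfinavir was added to bortezomib, are shown with GGAATG in capitals.
ANKRD1, chr10:90921088-90921337, minus strand: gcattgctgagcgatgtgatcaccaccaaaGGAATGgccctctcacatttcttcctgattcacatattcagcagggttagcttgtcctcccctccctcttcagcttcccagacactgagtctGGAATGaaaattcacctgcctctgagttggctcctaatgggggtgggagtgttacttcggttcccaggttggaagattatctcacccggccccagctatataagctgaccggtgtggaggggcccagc
CTGF, chr6:131951373-131951622, minus strand: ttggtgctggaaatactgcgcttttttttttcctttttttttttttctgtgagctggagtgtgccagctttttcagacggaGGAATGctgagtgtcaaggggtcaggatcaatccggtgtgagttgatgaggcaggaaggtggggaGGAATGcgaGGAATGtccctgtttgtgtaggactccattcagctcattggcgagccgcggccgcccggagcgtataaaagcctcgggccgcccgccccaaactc
AMOTL2, chr3:134375418-134375667, minus strand: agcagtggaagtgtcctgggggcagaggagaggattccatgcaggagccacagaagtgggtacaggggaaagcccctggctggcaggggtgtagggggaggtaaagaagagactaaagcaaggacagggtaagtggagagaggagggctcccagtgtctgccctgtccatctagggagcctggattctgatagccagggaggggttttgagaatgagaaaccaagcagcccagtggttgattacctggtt
The match begins at -220 and -128 in *ANKRD1* and at -169, -104 and -95 in *CTGF*, counted from the start site at 0, while the *AMOTL2* window holds none. The AP-1 letters TGANTCA, searched with any base at N, occurred in *ANKRD1* alone, as TGATTCA at -195, and in 7.71% of all promoters. The *ANKRD1* window also held GAANNTTC, a pair of heat shock units found in 6.77% of promoters, at -123, overlapping the last base of its downstream GGAATG. The C/EBP-ATF letters TGATGNAA (3.62% of promoters) and the CArG box bound by SRF (1.29%) were found in none of the 7. These are matches of letters in 1 window per gene and say nothing of binding.

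In the GRCh37 annotation, the build of the deposited counts, *ANKRD1* lies at chr10:92671853-92680844 on the minus strand, *CYR61* at chr1:86046444-86050272 on the plus strand and *CTGF* at chr6:132269316-132272512 on the minus strand. *AMOTL2* lies at chr3:134074189-134094321, *AJUBA* at chr14:23440386-23451760 and *LATS2* at chr13:21547175-21635725, all on the minus strand. *AXL* (chr19:41725128-41767671), *TEAD1* (chr11:12695968-12966284) and *YAP1* (chr11:101981178-102104155) are on the plus strand. Exons of the antisense lncRNA ENSG00000254422 overlap 628 bases of *YAP1* exons, 302 of them within its last 500 bases, and no source used here gives the strand setting of the counting, so reads of the pair cannot be told apart. Antisense exons also overlap *CTGF* (278 bases, *LINC01013*) and *AXL* (67 bases), and same-strand exons overlap *AMOTL2* (187 bases, the pseudogene *RPL39P5*) and *AJUBA* (50 bases). None of these overlapping genes has a row of its own in the matrix. A search of annotated transcripts for near copies of the last 500 bases of each gene matched only this antisense overlap of *YAP1* (ENSG00000254422, 302 bases).

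Total counts per library ran from 5154533 to 6943164. Transcripts encoded in mitochondria made up 21.5% ± 1.32 of a DMSO library and 33.8% ± 1.20 of a bortezomib library (SD, n = 4 each). They made up 27.2% ± 2.26 in bortezomib-nelfinavir and 36.1% ± 3.13 in bortezomib-ISRIB. The TMM scaling factors of edgeR were 1.16 to 1.24 without bortezomib and 0.786 to 0.869 with it. With library totals alone in place of TMM, the median log2 fold change of all genes moved to -0.50 for Btz against DMSO, to -0.55 for Btz-Nelf against Nelf and to -0.52 for Btz-ISRIB against ISRIB, so changes in comparisons that add bortezomib are relative to the other genes. The summed level of 6 hepatocyte markers was 11230 to 12476 CPM (counts scaled to a common library total) in DMSO and 5333 to 6802 CPM in bortezomib-nelfinavir. It was 8277 to 8803 CPM in bortezomib and 7709 to 9089 CPM in bortezomib-ISRIB, also below DMSO. Of the markers of other cells, fibroblast and stellate markers summed to at most 1.26 CPM (3 of 6 in the matrix, *COL1A2*, *DCN* and *LUM* not listed), endothelial markers to at most 0.194 CPM (1 of 4) and leukocyte markers to at most 5.86 CPM (2 of 4, *PTPRC* and *CD3E* not listed). With mitochondrial genes left out before scaling, as many of the 8 genes other than *ANKRD1* were called in each direction as with them, in every comparison. The part of the hepatocyte markers in the results was not tested, and in bulk RNA fewer cells of a kind and less RNA per cell cannot be told apart.

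All 9 genes passed the filter on low counts, which asked for the equivalent of 0.817 CPM in at least 4 libraries. *AXL* passed it only through 7 bortezomib libraries, so a higher level with bortezomib follows in part from the filter, and it is left out of the counts of genes called. Levels are TMM-scaled CPM per library, and log2 fold changes are from edgeR's quasi-likelihood test, fitted on 12685 genes with Benjamini-Hochberg adjustment over all of them. Genes with adjusted p under 0.05 are called changed.

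**Figure D1:**
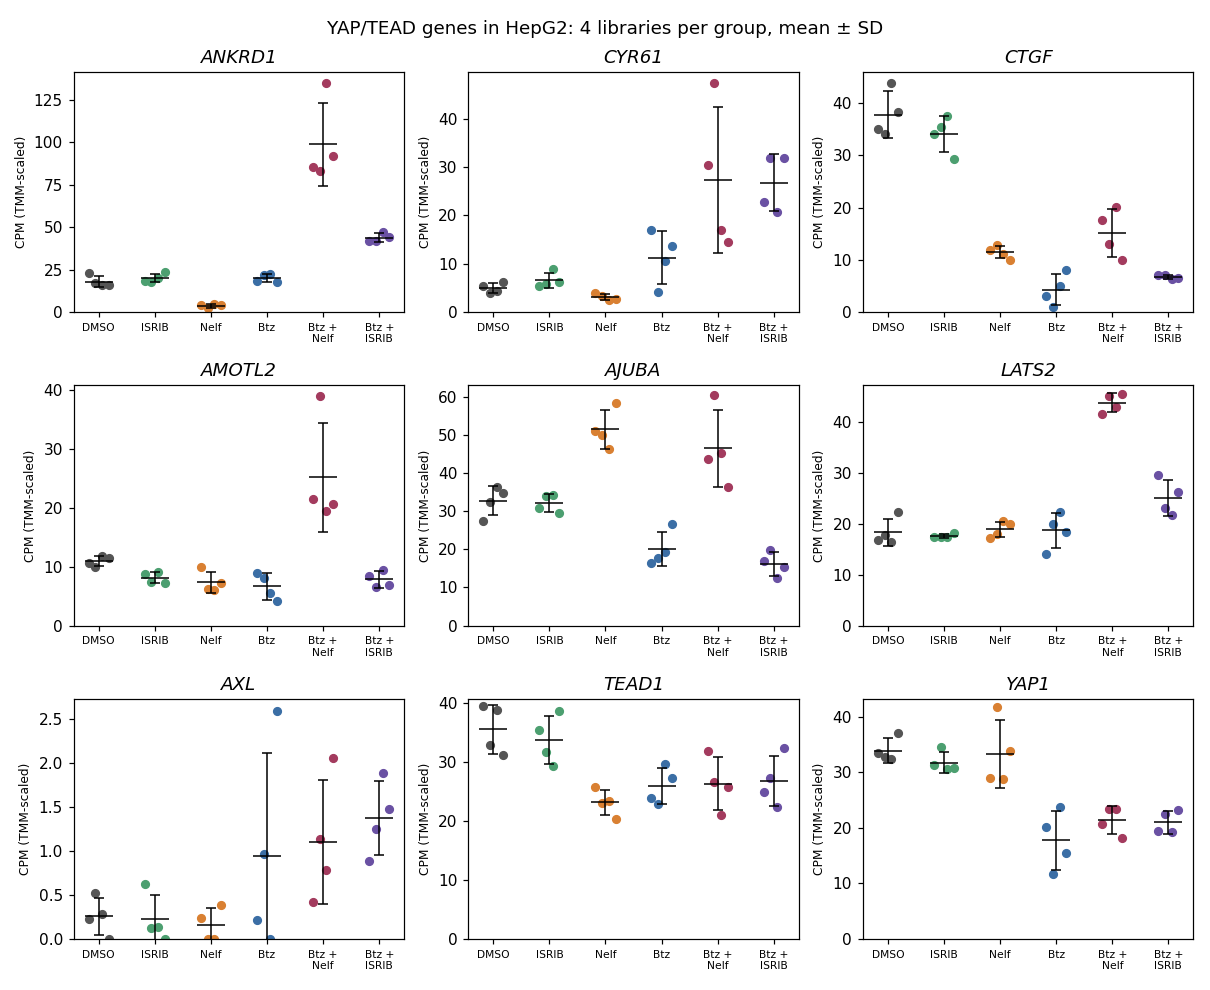
TMM-scaled CPM (vertical axis, linear from 0) of the 9 genes in the 6 treatment groups (horizontal axis). Points are the 4 libraries of a group, the horizontal line is their mean and the bars are ± SD, clipped at 0 for *AXL*. *ANKRD1* ran from 2.19 to 4.8 CPM with nelfinavir alone and from 82.9 to 135 CPM with bortezomib-nelfinavir, and *CTGF* was highest in DMSO and ISRIB.

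*ANKRD1*, which encodes a nuclear and sarcomeric ankyrin repeat protein, had the widest range of levels among the 9 genes, *AXL* with its few counts left aside. In DMSO its level was 22.8, 16.9, 15.8 and 16.1 CPM in replicates 1 to 4, and in bortezomib it was 18.4, 21.5, 22.4 and 17.7 CPM. With ISRIB it was 18.5, 18, 19.8 and 23.4 CPM. These 3 groups overlap. With nelfinavir alone the level was 4.06, 2.19, 4.8 and 4.02 CPM, below every DMSO library. With bortezomib-nelfinavir it was 85.4, 82.9, 135 and 91.8 CPM, and with bortezomib-ISRIB 41.6, 42.1, 47.4 and 43.9 CPM. Both co-treatment groups lay above all libraries of the single treatments, and the bortezomib-nelfinavir libraries lay above those of bortezomib-ISRIB.

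As a description, *ANKRD1* was 4.73-fold lower in nelfinavir than in DMSO (log2 fold change -2.24, SE 0.195) and 4.93-fold higher in bortezomib-nelfinavir than in bortezomib (2.30, SE 0.162). Bortezomib against DMSO gave 0.16 (SE 0.168), and bortezomib-nelfinavir against nelfinavir gave 4.70 (SE 0.189), a 26-fold higher level. These contrasts share libraries and were part of what the gene was chosen by. The tested comparison uses other libraries: *ANKRD1* was upregulated 2.19-fold in bortezomib-ISRIB over ISRIB (log2 fold change 1.13, SE 0.160, edgeR adjusted p = 3.15e-07), with no overlap between the 4 and 4 libraries, as for 48.1% of all genes in that comparison. With library totals alone the same comparison gave 0.59 (edgeR adjusted p = 0.00187). Bortezomib-ISRIB against bortezomib gave 1.13 (SE 0.165) for *ANKRD1*, which is a description because the bortezomib libraries were among those used to choose it.

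*CYR61*, an immediate early matricellular protein, was higher with bortezomib than without it on each of the 3 backgrounds, DMSO, nelfinavir and ISRIB. In DMSO it was 5.35, 3.91, 4.34 and 6.13 CPM, in ISRIB 5.42, 5.90, 8.90 and 6.16 CPM and in nelfinavir 3.94, 3.36, 2.47 and 2.73 CPM. These low levels overlap between neighbouring groups. In bortezomib the level was 16.9, 4.07, 10.6 and 13.6 CPM, with 1 library inside the range of DMSO. In bortezomib-nelfinavir it was 30.4, 47.5, 16.9 and 14.5 CPM and in bortezomib-ISRIB 22.7, 31.8, 20.6 and 31.8 CPM. The latter group had the narrower spread, and its 4 libraries were above all bortezomib libraries.

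Bortezomib upregulated *CYR61* 2.26-fold against DMSO (log2 fold change 1.18, SE 0.334, edgeR adjusted p = 0.00342), although the ranges overlap and the call is lost with library totals alone (0.68, edgeR adjusted p = 0.0700). Nelfinavir raised it a further 2.42-fold over bortezomib (1.27, SE 0.304, edgeR adjusted p = 0.00180), again with overlapping ranges, and without replicate 2 of bortezomib-nelfinavir the difference was 0.91 (edgeR adjusted p = 0.0159). ISRIB raised it 2.38-fold over bortezomib (1.25, SE 0.305, edgeR adjusted p = 0.00532). Against nelfinavir alone, bortezomib-nelfinavir was 8.61-fold higher (3.11, SE 0.335, edgeR adjusted p = 1.50e-09), and against ISRIB alone bortezomib-ISRIB was 4.06-fold higher (2.02, SE 0.308, edgeR adjusted p = 1.31e-06). Nelfinavir against DMSO gave -0.66 (SE 0.365, edgeR adjusted p = 0.237), which was not called.

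*CTGF*, the relative of *CYR61* that promotes matrix deposition, was lower with bortezomib on the DMSO and ISRIB backgrounds and rose when nelfinavir was added to bortezomib. In DMSO it was 35.0, 34.0, 43.8 and 38.4 CPM and in ISRIB 34.1, 35.4, 37.4 and 29.3 CPM. Nelfinavir libraries held 11.8, 12.9, 11.2 and 10.00 CPM, and bortezomib libraries 2.99, 0.970, 5.07 and 8 CPM. Each single drug apart from ISRIB thus left every library below every DMSO library, and the lowest bortezomib library held 5 counts. In bortezomib-nelfinavir the level was 17.5, 12.9, 20.0 and 9.95 CPM, and in bortezomib-ISRIB 7.12, 7.12, 6.32 and 6.42 CPM. Bortezomib-nelfinavir overlapped nelfinavir and lay above bortezomib, and bortezomib-ISRIB overlapped bortezomib.

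*CTGF* was downregulated 8.96-fold by bortezomib (log2 fold change -3.16, SE 0.263, edgeR adjusted p = 4.34e-12) and 3.29-fold by nelfinavir (-1.72, SE 0.218, edgeR adjusted p = 2.79e-07) against DMSO. Adding nelfinavir to bortezomib upregulated it 3.59-fold (1.84, SE 0.282, edgeR adjusted p = 6.54e-06). Adding ISRIB gave 0.68 (SE 0.313, edgeR adjusted p = 0.157), which was called only when replicate 4 of bortezomib was left out (1.18, edgeR adjusted p = 0.0145). Bortezomib-ISRIB was 5.03-fold lower than ISRIB (-2.33, SE 0.247, edgeR adjusted p = 1.14e-09). Bortezomib-nelfinavir against nelfinavir gave 0.40 (SE 0.234, edgeR adjusted p = 0.149), which was called without replicate 4 of bortezomib-nelfinavir (0.55, edgeR adjusted p = 0.0493) and was -0.11 with library totals alone.

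*CYR61* and *CTGF* can be compared within a library, where the scaling cancels. A library held 7.90 ± 1.83 *CTGF* counts per *CYR61* count in DMSO (SD, n = 4), 5.31 ± 0.989 in ISRIB and 3.76 ± 0.627 in nelfinavir. With bortezomib the ratio was 0.371 ± 0.195, with bortezomib-nelfinavir 0.681 ± 0.380 and with bortezomib-ISRIB 0.261 ± 0.0570. The lowest ratio without bortezomib was 3 and the highest with it 1.19, so the 12 libraries of each kind did not overlap, whichever scaling is used. *ANKRD1* counts per *CTGF* count ran from 0.361 to 0.651 in DMSO, from 0.170 to 0.430 in nelfinavir and from 4.87 to 9.23 in bortezomib-nelfinavir. In bortezomib they were 6.14, 22.2, 4.42 and 2.22, where the high value comes from the library with 5 *CTGF* counts. This measure was added after the levels were seen and is given with no test, and a ratio shows unequal change, not which gene changed.

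**Figure D2:**
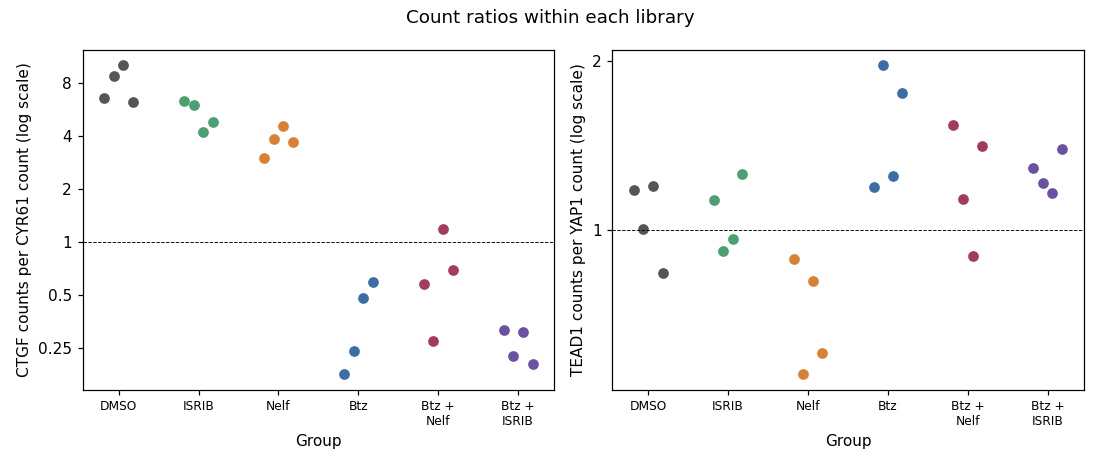
Counts of *CTGF* per count of *CYR61* (left) and of *TEAD1* per count of *YAP1* (right) in each library, on logarithmic vertical axes, by treatment group. Each point is 1 library and the dashed line marks equal counts. The *CTGF* to *CYR61* ratio was 3 or more in the 12 libraries without bortezomib and 1.19 or less in the 12 with it.

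*AMOTL2*, an angiomotin-like protein that binds YAP, rose when nelfinavir was added to bortezomib and was lower with bortezomib alone. In DMSO it was 10.6, 10.0, 11.9 and 11.4 CPM, in nelfinavir 9.91, 6.20, 6.10 and 7.27 CPM and in bortezomib 8.98, 8.15, 5.49 and 4.11 CPM. Both drugs left all libraries below DMSO. In bortezomib-nelfinavir the level was 21.6, 39.1, 19.5 and 20.6 CPM, above the libraries of all other groups. In ISRIB it was 8.70, 7.48, 9.18 and 7.15 CPM and in bortezomib-ISRIB 8.46, 6.49, 9.47 and 6.91 CPM, which overlap and gave -0.05 (SE 0.244, edgeR adjusted p = 0.880), or a called -0.58 with library totals alone (edgeR adjusted p = 0.0380). Bortezomib downregulated *AMOTL2* 1.63-fold (log2 fold change -0.71, SE 0.241, edgeR adjusted p = 0.0134). Adding nelfinavir to bortezomib upregulated it 3.73-fold (1.90, SE 0.237, edgeR adjusted p = 1.96e-07), and 1.66 remained without the high replicate 2 (edgeR adjusted p = 8.58e-07). Against nelfinavir alone the combination was 3.39-fold higher (1.76, SE 0.223, edgeR adjusted p = 4.15e-08). Nelfinavir against DMSO gave -0.57 (SE 0.226, edgeR adjusted p = 0.0766), which was called without replicate 1 of nelfinavir (-0.75, edgeR adjusted p = 0.0318).

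*LATS2*, the kinase that inactivates YAP, had neighbouring levels in 4 groups and rose when nelfinavir was added to bortezomib. It was 16.9, 17.7, 16.4 and 22.3 CPM in DMSO, 17.4, 17.5, 17.4 and 18.2 CPM in ISRIB and 17.2, 18.1, 20.5 and 19.9 CPM in nelfinavir. In bortezomib it was 14.1, 20.0, 22.4 and 18.4 CPM, around the same level. In bortezomib-nelfinavir the level was 41.6, 45.2, 43.0 and 45.4 CPM, above all other libraries and with little spread, and in bortezomib-ISRIB 29.6, 23, 21.7 and 26.2 CPM. Adding nelfinavir to bortezomib upregulated *LATS2* 2.34-fold (log2 fold change 1.23, SE 0.140, edgeR adjusted p = 4.16e-08), and the combination was 2.32-fold above nelfinavir alone (1.21, SE 0.135, edgeR adjusted p = 3.15e-09). Bortezomib-ISRIB over ISRIB gave 0.51 (SE 0.141, edgeR adjusted p = 0.00266), which turned to -0.03 with library totals alone. Bortezomib-ISRIB over bortezomib gave 0.42 (SE 0.145, edgeR adjusted p = 0.0516), which was called without replicate 3 of bortezomib (0.51, edgeR adjusted p = 0.0310) or replicate 3 of bortezomib-ISRIB (0.48, edgeR adjusted p = 0.0365). Bortezomib and nelfinavir alone gave 0.03 (95% interval -0.25 to 0.31) and 0.04 (-0.22 to 0.31) against DMSO, the former turning to a called -0.47 with library totals alone (edgeR adjusted p = 0.00539).

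*AJUBA*, a LIM domain scaffold that restrains LATS kinases, rose with nelfinavir whether or not bortezomib was present, and fell with bortezomib where nelfinavir was absent. It was 27.5, 32.4, 36.4 and 34.7 CPM in DMSO, 30.8, 34.1, 34.2 and 29.6 CPM in ISRIB and 51, 50.1, 46.3 and 58.4 CPM in nelfinavir. The nelfinavir libraries lay above both other groups. In bortezomib it was 16.5, 17.8, 19.4 and 26.6 CPM, in bortezomib-ISRIB 16.9, 19.9, 12.4 and 15.3 CPM and in bortezomib-nelfinavir 43.8, 60.6, 45.2 and 36.4 CPM. The bortezomib-nelfinavir libraries overlapped nelfinavir and lay above bortezomib. Nelfinavir upregulated *AJUBA* 1.57-fold over DMSO (log2 fold change 0.65, SE 0.144, edgeR adjusted p = 0.00105) and 2.31-fold over bortezomib (1.21, SE 0.158, edgeR adjusted p = 4.72e-07). Bortezomib downregulated it 1.63-fold (-0.71, SE 0.157, edgeR adjusted p = 2.92e-04), and bortezomib-ISRIB was 1.99-fold below ISRIB (-0.99, SE 0.162, edgeR adjusted p = 3.92e-06). Bortezomib-nelfinavir against nelfinavir gave -0.15 (SE 0.145, edgeR adjusted p = 0.388), and a called -0.66 with library totals alone (edgeR adjusted p = 1.28e-04).

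*AXL*, a receptor tyrosine kinase, was near the limit of detection. Its counts in replicates 1 to 4 were 2, 4, 2 and 0 in DMSO, 5, 1, 1 and 0 in ISRIB and 2, 0, 0 and 3 in nelfinavir. They were 1, 5, 0 and 12 in bortezomib, 2, 5, 4 and 11 in bortezomib-nelfinavir and 4, 6, 9 and 6 in bortezomib-ISRIB. The totals over 4 libraries were thus 8, 7 and 5 counts without bortezomib and 18, 22 and 25 with it. As a description, the fitted log2 fold change of *AXL* was 2.67 (SE 0.951) in bortezomib-nelfinavir against nelfinavir, 2.50 (SE 0.892) in bortezomib-ISRIB against ISRIB and 1.81 (SE 0.911) in bortezomib against DMSO. Single libraries moved these values. The first was 2.15 without replicate 4 of bortezomib-nelfinavir and 3.45 without replicate 4 of nelfinavir. The second was 2.10 without replicate 4 of ISRIB and 3.69 without replicate 1 of ISRIB, and bortezomib against DMSO was 0.59 without replicate 4 of bortezomib.

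*TEAD1*, the DNA-binding partner of YAP, and *YAP1* itself both fell with bortezomib against DMSO. *TEAD1* was 31.1 to 39.4 CPM in DMSO, 29.4 to 38.6 in ISRIB, 20.4 to 25.7 in nelfinavir and 22.9 to 29.6 in bortezomib. The nelfinavir and bortezomib libraries were all below those of DMSO. It was 21 to 31.9 CPM in bortezomib-nelfinavir and 22.3 to 32.3 CPM in bortezomib-ISRIB, both overlapping bortezomib. *TEAD1* was downregulated 1.53-fold by nelfinavir (log2 fold change -0.62, SE 0.137, edgeR adjusted p = 0.00104) and 1.37-fold by bortezomib (-0.46, SE 0.140, edgeR adjusted p = 0.00651). Adding either drug to bortezomib gave differences close to 0, 0.02 (95% interval -0.26 to 0.31) with nelfinavir and 0.04 (-0.25 to 0.33) with ISRIB. Bortezomib-ISRIB against ISRIB gave a called -0.34 (SE 0.141, edgeR adjusted p = 0.0391), lost without replicate 1 (-0.32) or 4 (-0.27) of ISRIB or replicate 3 of bortezomib-ISRIB (-0.32). Bortezomib-nelfinavir against nelfinavir gave 0.18 (SE 0.142, edgeR adjusted p = 0.279), turning to a called -0.33 with library totals alone (edgeR adjusted p = 0.0451).

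*YAP1* was 32.3 to 37.1 CPM in DMSO, 30.5 to 34.5 in ISRIB and 28.8 to 41.7 in nelfinavir. It was 11.6 to 23.7 CPM in bortezomib, 18.2 to 23.4 in bortezomib-nelfinavir and 19.2 to 23.2 in bortezomib-ISRIB. All 12 bortezomib libraries therefore lay below the 12 others. Bortezomib downregulated *YAP1* 1.92-fold (log2 fold change -0.94, SE 0.158, edgeR adjusted p = 6.86e-06), bortezomib-nelfinavir was 1.56-fold below nelfinavir (-0.64, SE 0.155, edgeR adjusted p = 7.46e-04) and bortezomib-ISRIB 1.51-fold below ISRIB (-0.59, SE 0.157, edgeR adjusted p = 0.00175). Nelfinavir alone gave -0.03 (95% interval -0.31 to 0.26). Adding nelfinavir to bortezomib gave 0.27 (SE 0.166, edgeR adjusted p = 0.224), which was called without replicate 3 of bortezomib (0.48, edgeR adjusted p = 0.0362). *TEAD1* counts per *YAP1* count were 1.05 ± 0.169 in DMSO, 0.714 ± 0.161 in nelfinavir, 1.54 ± 0.379 in bortezomib and 1.25 ± 0.287 in bortezomib-nelfinavir (SD, n = 4).

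**Figure D3:**
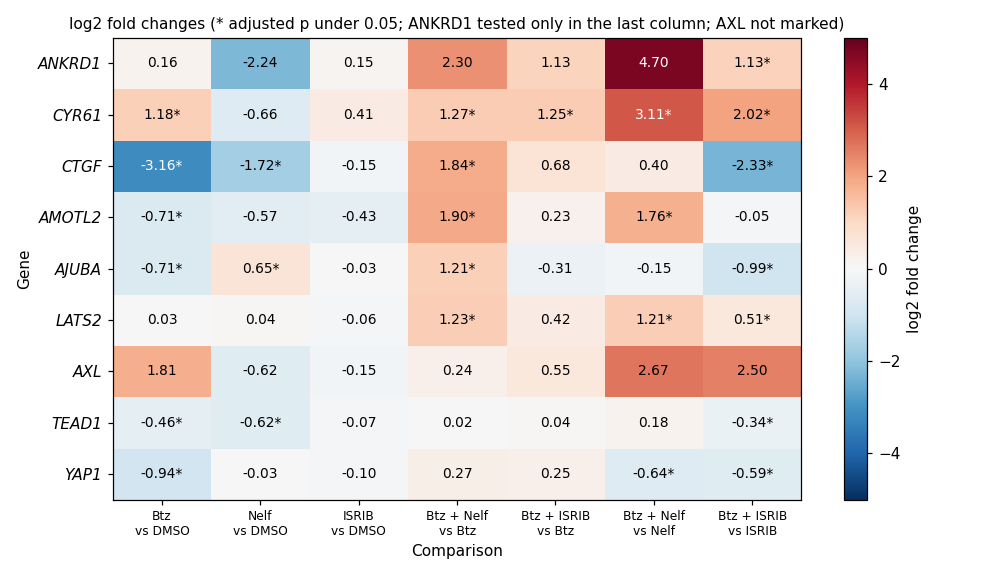
Log2 fold changes (colour and printed value) of the 9 genes (rows) in 7 comparisons (columns). An asterisk marks an edgeR adjusted p under 0.05. *ANKRD1* was tested in the last column alone, and *AXL* is not marked. In the column for bortezomib-nelfinavir against bortezomib, 5 of the 7 tested genes were called, all higher.

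The comparisons can now be read across the 7 tested genes, with *AXL* left out after its counts were seen. With bortezomib against DMSO, 1 was called higher (*CYR61*) and 5 lower (*CTGF*, *AMOTL2*, *AJUBA*, *TEAD1*, *YAP1*), against 53.4% of all 12685 genes called (27.6% higher, 25.8% lower), and the median log2 fold change of the 7 was -0.71 against 0.00 over all genes. Under library totals alone none was higher and 6 were lower, as *CYR61* lost its call and *LATS2* gained one. *CYR61* and *CTGF*, the pair used most to read the programme, were called in opposite directions. The libraries did not overlap for 5 of the 7, where 50% of all genes did not. With nelfinavir against DMSO, 1 was higher (*AJUBA*) and 2 lower (*CTGF*, *TEAD1*), where 19.2% of all genes were called (10.4% higher, 8.84% lower), and the median was -0.57. The libraries did not overlap for 4 of the 7 (*CTGF*, *AMOTL2*, *AJUBA*, *TEAD1*), where 29.6% of all genes did not. The call of *CYR61* and *AMOTL2* as lower was made only in a model of these 2 groups or, for *AMOTL2*, without 1 library.

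When nelfinavir was added to bortezomib, 5 of the 7 were higher (*CYR61*, *CTGF*, *AMOTL2*, *AJUBA*, *LATS2*) and none lower, where 28.9% of all genes were called (15.6% higher, 13.4% lower). The median log2 fold change of the 7 was 1.23, against -0.02 over all genes. *TEAD1* and *YAP1* gave 0.02 and 0.27 and were not called. The libraries did not overlap for 4 of the 7, where 21.5% of all genes did not. This comparison, like nelfinavir against DMSO, is 1 side of the difference by which *ANKRD1* was chosen. The 7 genes were listed with earlier results of these data known, so the counts beside these shares are a description. When ISRIB was added to bortezomib, 1 of the 7 was called, *CYR61*, where 12.2% of all genes were (6.91% higher, 5.34% lower), and the median was 0.25. The bortezomib libraries serve as the control in both of these comparisons and as the treated group against DMSO, so the values are not independent of each other.

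With bortezomib added to nelfinavir, 3 of the 7 were higher (*CYR61*, *AMOTL2*, *LATS2*) and 1 lower (*YAP1*), where 57.1% of all genes were called (28.7% higher, 28.4% lower). Scaling by library totals alone gave 3 higher and 3 lower, as *AJUBA* and *TEAD1* were called lower. With bortezomib added to ISRIB, 2 were higher (*CYR61*, *LATS2*) and 4 lower (*CTGF*, *AJUBA*, *TEAD1*, *YAP1*), where 54.7% of all genes were called (29.1% higher, 25.6% lower). Scaling by library totals alone gave 1 higher and 5 lower, as *LATS2* lost its call and *AMOTL2* was called lower. In both of these comparisons and in bortezomib against DMSO, *CYR61* was called higher and *YAP1* lower.

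ISRIB alone called none of the 7 genes by edgeR, and none of the 7 had an unadjusted p under 0.05. Over all 12685 genes, 0% (0 genes) were called by edgeR, 703 had an unadjusted p under 0.05 and DESeq2 called 19. The *AMOTL2* libraries did not overlap between ISRIB and DMSO, at -0.43 (SE 0.224, edgeR adjusted p = 0.928), as did those of 8.01% of all genes. The other 6 lay between -0.15 and 0.41.

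The difference between the effect of ISRIB with and without bortezomib was called for none of the 7 by edgeR, with 2 at an unadjusted p under 0.05 and 4.82% of all genes called (2.93% higher, 1.89% lower). It was 0.84 for *CYR61* (95% interval -0.05 to 1.73), 0.83 for *CTGF* (0.10 to 1.56), 0.66 for *AMOTL2* (-0.01 to 1.33) and 0.48 for *LATS2* (0.09 to 0.87), intervals that are not adjusted for the number of genes. *CTGF* was called without replicate 4 of bortezomib (1.33, edgeR adjusted p = 0.0326). *ANKRD1* gave 0.97 (SE 0.231), as a description.

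The same difference for nelfinavir is what *ANKRD1* was chosen by and was tested for none of the genes. It was 4.54 for *ANKRD1* (SE 0.253), from -2.24 without bortezomib to 2.30 with it. It was 3.56 (SE 0.355) for *CTGF*, from -1.72 to 1.84, and 2.47 (SE 0.328) for *AMOTL2*, from -0.57 to 1.90. In these 3 genes every nelfinavir library lay below every DMSO library and every bortezomib-nelfinavir library above every bortezomib library. *CYR61* gave 1.93 (SE 0.475), *LATS2* 1.18 (SE 0.196), *TEAD1* 0.64 (SE 0.200), *AJUBA* 0.56 (SE 0.214) and *YAP1* 0.30 (SE 0.222). In this contrast 19.7% of all genes were called (9.74% higher). Over all genes, libraries did not overlap for 29.6% in nelfinavir against DMSO and 21.5% in bortezomib-nelfinavir against bortezomib. The share with both, in opposite directions, was not counted.

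**Figure D4:**
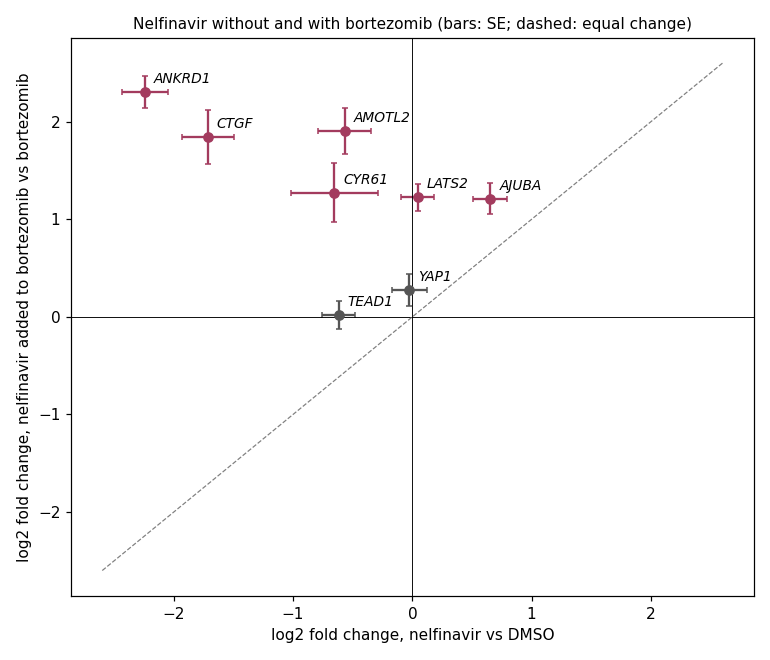
Log2 fold change of nelfinavir against DMSO (horizontal) and of bortezomib-nelfinavir against bortezomib (vertical) for 8 of the 9 genes, with *AXL* left out for its low counts. Bars are SE, the dashed line marks equal change and the colours set *TEAD1* and *YAP1* apart. *ANKRD1* and *CTGF* lie at the upper left, at -2.24 and 2.30 and at -1.72 and 1.84.

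The other genes of the pathway were looked at as a list of 22 regulators and cofactors, of which 19 were tested. With bortezomib against DMSO, 4 were higher and 5 lower, where 53.4% of all genes were called (27.6% higher, 25.8% lower). The higher ones included *TAOK1* (0.66, edgeR adjusted p = 2.62e-07), a kinase upstream of the Hippo kinases, and *RASSF1* (0.78, edgeR adjusted p = 0.00407), a scaffold of STK3 and STK4. The lower ones included *TEAD4* (-1.24, edgeR adjusted p = 1.24e-08), another TEAD factor, and *WWTR1* (-0.51, edgeR adjusted p = 1.32e-05), which encodes TAZ. With library totals alone the list had none higher and 9 lower. With nelfinavir alone, 4 were lower and none higher, where 19.2% of all genes were called (10.4% higher, 8.84% lower). *WWTR1* was again among the lower ones (-0.53, edgeR adjusted p = 2.74e-05), with *STK4* at -0.29 (edgeR adjusted p = 0.0129) and *WWC1* at -0.47 (edgeR adjusted p = 0.0145).

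When nelfinavir was added to bortezomib, 6 of the 19 regulators were higher and none lower, where 28.9% of all genes were called (15.6% higher, 13.4% lower), with a median of 0.27 against -0.02 over all genes. Under library totals alone 5 were higher and none lower. They were led by *PTPN14* (1.05, edgeR adjusted p = 1.67e-06), a phosphatase that binds YAP, *RASSF1* (1.37, edgeR adjusted p = 8.82e-06) and *STK4* (0.44, edgeR adjusted p = 1.99e-04), the MST1 kinase of the pathway. *PTPN14* was 62.9 ± 13.3 CPM in bortezomib-nelfinavir and 30.4 ± 5.54 CPM in bortezomib (SD, n = 4), and *RASSF1* was 43.6 ± 8.94 CPM against 16.9 ± 9.29 CPM. Adding ISRIB to bortezomib called none of the 19 by edgeR, with 5 at an unadjusted p under 0.05, where 12.2% of all genes were called. Bortezomib-nelfinavir against nelfinavir gave 9 higher and 1 lower (57.1% of all genes called), and bortezomib-ISRIB against ISRIB 5 higher and 4 lower (54.7% of all genes called). With library totals alone these became 3 higher and 5 lower, and 1 higher and 8 lower. ISRIB alone called none of this list or of the lists that follow by edgeR, with 1 of the 19, 1 of the 10 further YAP targets and 4 of the 12 SRF targets at an unadjusted p under 0.05.

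A list of 16 further YAP targets, of which 10 were tested, was split in most comparisons. With bortezomib against DMSO, 3 were higher and 3 lower, with a median of -0.04, where 53.4% of all genes were called (27.6% higher, 25.8% lower). With library totals alone 2 were higher and 5 lower, with a median of -0.54. *GADD45A*, a stress gene with many other regulators, was higher (2.32, edgeR adjusted p = 3.47e-16), as were *ASAP1* (1.56, edgeR adjusted p = 4.57e-16) and *DOCK5* (0.43, edgeR adjusted p = 0.00651). *NT5E*, the ecto-5′-nucleotidase CD73, was lower (-2.37, edgeR adjusted p = 3.79e-07), as were *ARHGEF17* (-1.24, edgeR adjusted p = 2.44e-04) and *NUAK2* (-1.43, edgeR adjusted p = 4.36e-04). With nelfinavir alone, *NUAK2* (-1.09, edgeR adjusted p = 0.00779) and *CRIM1* (-0.76, edgeR adjusted p = 0.0107) were lower and none was higher, where 19.2% of all genes were called (10.4% higher, 8.84% lower). Adding nelfinavir to bortezomib called *PTPN14*, which is on both lists, higher and *GADD45A* lower (-0.54, edgeR adjusted p = 0.00120), and left 8 of 10 not called. Of all genes, 28.9% were called in that comparison. Adding ISRIB called *DOCK5* higher (0.42, edgeR adjusted p = 0.0334) and *ASAP1* (-0.33, edgeR adjusted p = 0.0116) and *GADD45A* (-0.40, edgeR adjusted p = 0.0307) lower, where 12.2% of all genes were called (6.91% higher, 5.34% lower). With library totals alone none of the list was higher and 3 were lower. The median of this list when nelfinavir was added to bortezomib was 0.06, against 1.23 for the 7 genes. Bortezomib-nelfinavir against nelfinavir gave 5 higher and 2 lower (3 and 2 with library totals alone), and bortezomib-ISRIB against ISRIB 4 higher and 3 lower (3 and 3). Of all genes, 57.1% were called in the former and 54.7% in the latter.

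Several YAP targets also answer to SRF and its actin-sensing cofactors MRTF, so 15 targets of SRF were listed, of which 12 were tested. With bortezomib against DMSO, 3 were higher and 7 lower, where 53.4% of all genes were called (27.6% higher, 25.8% lower). *ACTA2* (1.47, edgeR adjusted p = 4.24e-11) and *FLNA* (1.35, edgeR adjusted p = 7.00e-11) were higher, and *TPM1* (-1.16, edgeR adjusted p = 1.11e-11) and *ACTB* (-0.82, edgeR adjusted p = 1.81e-09) were lower. Nelfinavir alone called 1 higher and 3 lower, with *VCL* at -0.91 (edgeR adjusted p = 8.63e-05), where 19.2% of all genes were called (10.4% higher, 8.84% lower). Adding nelfinavir to bortezomib called *CNN2* (0.69, edgeR adjusted p = 5.75e-05) and *SRF* itself (0.70, edgeR adjusted p = 1.59e-04) higher and *ACTA2* lower (-0.56, edgeR adjusted p = 0.00146). Of all genes, 28.9% were called in that comparison (15.6% higher, 13.4% lower). Adding ISRIB called 5 higher, led by *CNN2* (0.82, edgeR adjusted p = 1.34e-05), and 1 lower, *ACTA2* (-0.84, edgeR adjusted p = 3.45e-05), where 12.2% of all genes were called (6.91% higher, 5.34% lower). With library totals alone 3 were higher and 1 lower. The list moved to 2 higher and 8 lower in bortezomib against DMSO with library totals alone. Bortezomib-nelfinavir against nelfinavir gave 3 higher and 4 lower (1 and 8 with library totals alone), and bortezomib-ISRIB against ISRIB 4 higher and 6 lower (1 and 8). Of all genes, 57.1% were called in the former and 54.7% in the latter. The effect of ISRIB differed with and without bortezomib for *FLNA* (0.77, edgeR adjusted p = 0.00710) and *ACTA2* (-1.03, edgeR adjusted p = 7.04e-04), where 4.82% of all genes were called.

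Across the 24 libraries, the gene whose log2 CPM was most like that of *ANKRD1* was *CDC6*, a DNA replication licensing factor (Pearson r = 0.966). Next came *SFPQ* (0.933), *HSPE1* (0.924), *SRRT* (0.917) and *TFDP1* (0.916). *CDC6* was 67.9 ± 1.38 CPM in DMSO, 24.7 ± 3.13 in nelfinavir, 65.8 ± 7.31 in bortezomib, 92.7 ± 4.89 in bortezomib-ISRIB and 130.3 ± 8.92 in bortezomib-nelfinavir (SD, n = 4), lowest in nelfinavir and highest in bortezomib-nelfinavir, as *ANKRD1* was. *CYR61* was most like *SLC40A1* (0.919), which encodes the iron exporter ferroportin, then *SP6* (0.908), *TMEM2* (0.907), *PDIA6* (0.905) and *PLOD2* (0.900). *PDIA6*, an ER disulfide isomerase, was 738 ± 47.4 CPM in DMSO, 831 ± 40.1 in bortezomib, 1304 ± 88.4 in bortezomib-nelfinavir and 1415 ± 99.1 in bortezomib-ISRIB. These are descriptions over libraries that share their treatment groups and their scaling.

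Among the 9 genes themselves, r between *ANKRD1* and *CYR61* was 0.80 over the 24 libraries and -0.34 after the group means were removed. It was -0.05 between *ANKRD1* and *CTGF*, -0.27 between *CYR61* and *CTGF* (0.51 after removal of the group means) and 0.77 between *CTGF* and *YAP1* (again 0.51). Likeness between these genes over all libraries thus lay largely in the group means for *ANKRD1* and *CYR61*, and in part within groups for *CTGF* and *YAP1*. Replicate 2 of bortezomib was the lowest of its group for *CTGF* (0.970 CPM), *YAP1* (11.6 CPM) and *CYR61* (4.07 CPM). How far r within groups rests on that library was not tested.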

How the data were processed

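Total RNA of HepG2 cells was sequenced as QuantSeq 3′ FWD libraries with single-end reads of 80 bp. As deposited, the values are raw counts of reads for 18915 genes, a column for each of 24 libraries: the authors trimmed reads with cutadapt 2.8, aligned them to hg19 with STAR within the nf-core RNA-Seq pipeline and counted them on Ensembl GRCh37 genes. No source used here gives the program that counted the reads, the strand option or whether molecular identifiers were used. Intervals cover the spread between libraries as counted. Reads fall at 3′ ends, so levels were compared between groups and not between genes.

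Here, counts were filtered with filterByExpr (minimum count 5, minimum total 25, the filter of the study), scaled with TMM and tested with the quasi-likelihood test of edgeR 4.0.16 (R 4.3.3), in a single model of the 24 libraries with 1 coefficient for each group and Benjamini-Hochberg adjustment over 12685 genes. The SE of a log2 fold change was derived from its F statistic, and its 95% interval is 1.96 SE on either side. Correlations used log2 CPM with a prior count of 2. The model was also run on simulated counts with far fewer changed genes than the bortezomib comparisons, which checks the code and not those comparisons. No replicate pair agreed within sampling noise (lowest chi-square per degree of freedom 2.19). The highest was 23.7, between replicates 3 and 4 of bortezomib-ISRIB. In bortezomib-nelfinavir it was 4.13 between replicates 1 and 2 and 7.71 between 3 and 4. Across these pairs it was 14.1 to 21.8, and the cause of that split was not tested.

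The 9 genes and the lists were chosen with earlier results of these data known. Named genes are the 9, up to 3 per direction with the smallest adjusted p from each list, and the 5 most correlated with *ANKRD1* and *CYR61*. Alternatives were RLE and upper-quartile factors, library totals alone, no filter, the default filter (10 and 15 counts), mitochondrial genes left out, a replicate block, a model of the groups compared only, DESeq2 1.42.0, each library left out in turn and, chosen after seeing the data, *AXL* left out of the count. Promoters are from RefSeq (GRCh38.p14), and gene positions and near copies (97% identity or more over 80 bases or more) from the GRCh37 annotation.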

Additional observations from a re-analysis of the deposited data

Results flagged for a closer look

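In 3 of the 54 combinations of gene and group, 1 library stood apart from the other 3 by Dixon's ratio, where chance flags about 1 in 20. *ANKRD1* was 22.8 CPM in replicate 1 of DMSO and 15.8 to 16.9 CPM in the others, and without that library nelfinavir against DMSO was -2.10 in place of -2.24. *AMOTL2* was 39.1 CPM in replicate 2 of bortezomib-nelfinavir and 19.5 to 21.6 CPM in the others. *CYR61* (47.5 CPM) and *AJUBA* (60.6 CPM) were also highest in that library of the group, and without it the log2 fold change over bortezomib was 1.66 for *AMOTL2*, 0.91 for *CYR61* and 1.11 for *AJUBA*, all called by edgeR. *LATS2* was 18.2 CPM in replicate 4 of ISRIB and 17.4 to 17.5 CPM in the others, a gap of under 1 CPM.

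In 3 genes every nelfinavir library lay below every DMSO library and every bortezomib-nelfinavir library above every bortezomib library. Of all genes, 29.6% did not overlap in the first comparison and 21.5% in the second, in either direction. The share with both was not counted. For *AMOTL2* the first gap was narrow, at most 9.91 CPM against at least 10.0 CPM in DMSO, and not called (edgeR adjusted p = 0.0766). The nelfinavir by bortezomib difference was 4.54 for *ANKRD1*, 3.56 for *CTGF* and 2.47 for *AMOTL2* on the log2 scale. These differences were not tested, because that contrast is the one *ANKRD1* was chosen by.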

How the results depend on the processing

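The tested rise of *ANKRD1* in bortezomib-ISRIB over ISRIB (1.13) was called under all alternatives, at 0.59 with library totals alone and 1.04 to 1.22 with 1 library left out, and its untested nelfinavir by bortezomib difference was 4.36 to 4.68 with 1 library left out. Library totals alone shifted the comparisons that add bortezomib most. Among called genes, the higher ones went from 51.6% to 19.2% in Btz against DMSO, from 50.3% to 19.6% in Btz-Nelf against Nelf, from 53.3% to 19.3% in Btz-ISRIB against ISRIB, from 56.4% to 40.5% in Btz-ISRIB against Btz and from 60.8% to 49.4% in the ISRIB by bortezomib difference. Under it *LATS2* turned to -0.47 in Btz against DMSO and -0.032 in Btz-ISRIB against ISRIB, *TEAD1* to -0.33 in Btz-Nelf against Nelf, -0.013 in Btz-Nelf against Btz and -0.024 in Btz-ISRIB against Btz, *CTGF* to -0.11 in Btz-Nelf against Nelf and the untested *ANKRD1* value in Btz against DMSO to -0.34. Values near 0 that were called on neither side also changed sign: *LATS2* in Btz against DMSO was -0.0077 with RLE factors, -0.051 with upper-quartile factors, -0.042 with no filter, -0.013 without mitochondrial genes and -0.0078 by DESeq2, and *TEAD1* in Btz-Nelf against Btz was -0.023 with upper-quartile factors.

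With 1 library left out, sign changes were seen in *LATS2* (Btz against DMSO, -0.12 to 0.14; Nelf, -0.0024 to 0.15; ISRIB, -0.10 to 0.052), *YAP1* (Nelf against DMSO, -0.15 to 0.037), *AJUBA* (ISRIB against DMSO, -0.10 to 0.028), *AXL* (ISRIB against DMSO, -1.34 to 0.40; Btz-Nelf against Btz, -0.24 to 1.45), *TEAD1* (Btz-Nelf against Btz, -0.038 to 0.14; Btz-ISRIB against Btz, -0.063 to 0.11) and *AMOTL2* (Btz-ISRIB against ISRIB, -0.21 to 0.0099), none of them called. The count of the 7 genes called in Btz-ISRIB against Btz was 1, and 2 with the default filter, 2 by DESeq2 (*LATS2* added in both) and 1 to 2 with 1 library left out. In the ISRIB by bortezomib difference it was 0 to 1 with 1 library left out.

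A model of the groups compared only called 3873 genes and 5 of the 7 in Nelf against DMSO (2441 and 3 in the model of all groups, with *CYR61* and *AMOTL2* added), 2246 genes in Btz-Nelf against Btz (3669) and 867 in Btz-ISRIB against Btz (1553). That model uses fewer libraries for its estimate of the spread. In ISRIB against DMSO it called 80 genes, no filter 39 and DESeq2 19, where the model of all groups called 0. The cause of these changes was not tested. Replicate numbers were not treated as pairs, because the labels do not say that they pair cultures. In ISRIB, unlike the other groups, the replicate numbers do not follow the order of the S numbers in the titles. Any pairing by number may therefore misplace the ISRIB libraries. Same-numbered libraries were still alike more often. Of their 60 pairs, 10 correlated over 0.1 after removal of the group means, against 7 of 180 other pairs, and 14 of 24 libraries correlated best with their own number. With the replicate block, 6834 genes were called in Btz against DMSO (6773 without) and 3733 in Btz-Nelf against Btz (3669), and 6 and 5 of the 7 genes, as without it. Depth limits *AXL* most, at 0 to 12 counts a library, and *CTGF* in bortezomib, at 5 to 37.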
